A study of Homo sapiens with 6 samples.

Results

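The genes described here encode integrin alpha6 beta4, chains of laminin-332 and of other epithelial laminins, and the plakin linkers of the hemidesmosome. They were listed by symbol as ITGA6, ITGB4, LAMA3, LAMB3, LAMA5, LAMB1, LAMC1, PLEC and DST, 9 of the 58395 genes in the deposited table, and all 9 were found there. ITGB4 and LAMB3 were picked because their mean was at least 2 times as high in the CD20-positive libraries, so their difference between the groups is given as a description, without a test. The other 7 genes were listed for what they encode. All 6 libraries came from M14, a single established human melanoma cell line, cultured in suspension so that they formed melanospheres. After mechanical dissociation, staining for CD20 and flow sorting gave 3 positive and 3 negative fractions, and the labels name no drug or gene change for either group. Replicates are numbered 1 to 3 per group. Nothing says that they were separate cultures, and a p-value here reflects only how far these libraries scatter, which may be technical. CD20 is a surface protein of B cells, encoded by MS4A1.

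Hemidesmosomes are the junctions that fix the basal cells of skin and other epithelia to the basement membrane. In them integrin alpha6 beta4 binds laminin-332 outside the cell, and the long cytoplasmic tail of beta4 binds the plakins plectin (PLEC) and BPAG1, a product of DST, which hold keratin filaments. Each laminin is a trimer of an alpha, a beta and a gamma chain: laminin-332 contains the products of LAMA3 and LAMB3, and the widespread laminin-511 needs LAMA5, LAMB1 and LAMC1. The alpha6 chain can also pair with integrin beta1.

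Levels are in FPKM, that is, fragments per exon kilobase scaled to a library size, so levels can be compared between genes as amounts per length. The libraries held 15651149 to 17915933 fragments recovered from these values. The library sizes implied by the FPKM were above the recovered fragments in each CD20-negative library (17830371 to 19782351 against 16666532 to 17915933). They were below them in CD20-positive replicates 1 and 3 (15107880 against 17479739, and 15810158 against 16285002) and above in replicate 2 (16032142 against 15651149). FPKM thus sets CD20-positive levels higher against CD20-negative ones than recovered fragments would. The 2-fold choice and ratios below use FPKM. MS4A1 measured 0.225, 0.263 and 0.403 FPKM in CD20-negative replicates 1 to 3 and 1.24, 0.966 and 1.28 FPKM in CD20-positive replicates 1 to 3, higher in every sorted-positive library but low in both groups. A two-sided exact permutation test gave p = 0.1, the lowest value possible for 3 against 3 libraries. The sorted-positive libraries also held more fragments from mitochondrial genes, 11.9 to 20.6% against 4.25 to 5.73%, and fewer from ribosomal protein genes, 2.86 to 4.57% against 7.13 to 7.46%. The part of these shares in the differences below was not tested. Both replicate 1 libraries stood apart from the other 4, lying below all of them for 20.8% of the 13155 genes whose mean reached 1 FPKM and above all of them for 23.5%. Calls are therefore also counted without replicate 1, for the 9 genes and for the partner lists. In a bulk library, more cells that express a gene and more RNA per cell cannot be told apart.

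The set covered a wide range of levels. In CD20-negative libraries the order by mean FPKM was LAMA5 (84.4), PLEC (52.6), LAMB1 (32.9), LAMC1 (21.4), ITGB4 (19.6), LAMB3 (14.3), ITGA6 (12.02), DST (1.47) and LAMA3 (0.871). LAMC1 overlapped with ITGB4, and LAMB3 with ITGA6, while the other neighbours in this order did not overlap in any library of the group. In CD20-positive libraries the order was LAMA5 (125.7), PLEC (70.7), LAMB1 (47.5), ITGB4 (42.8), LAMB3 (29.9), LAMC1 (27.1), ITGA6 (14.2), DST (1.56) and LAMA3 (1.37). There LAMB1 overlapped with ITGB4, LAMB3 with LAMC1, and DST with LAMA3. ITGB4 and LAMB3 thus each stood 1 place higher in the CD20-positive order, above LAMC1, which their choice favours.

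**Figure D1:**
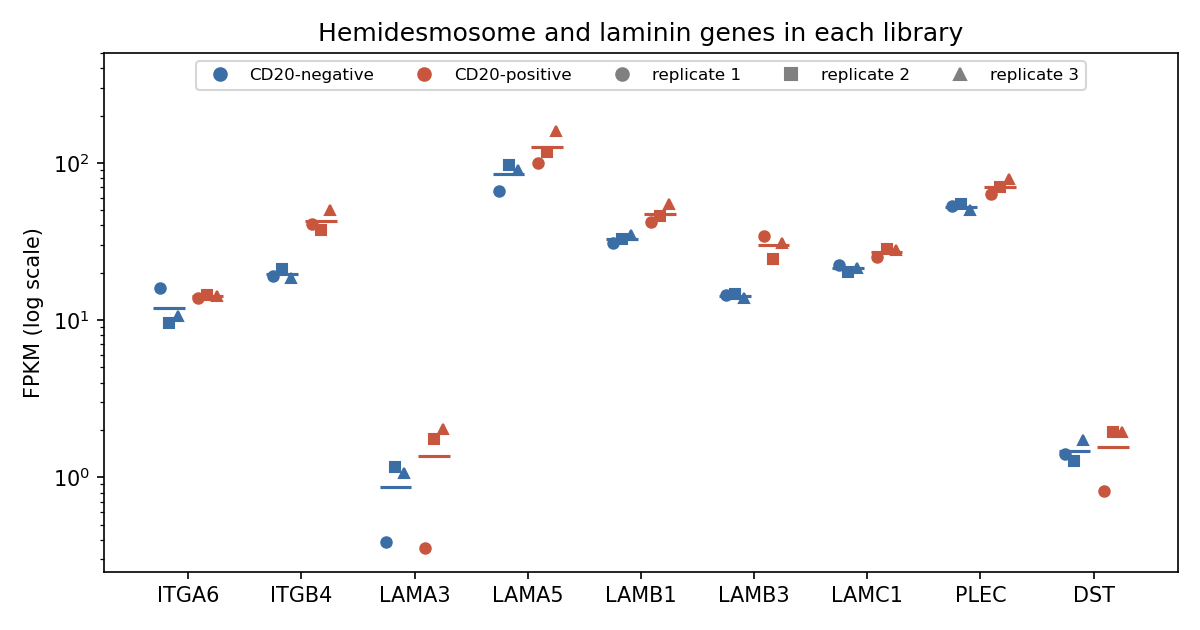
FPKM of the 9 genes in each library on a log scale, with CD20-negative in blue, CD20-positive in red, a marker shape per replicate and a bar at each group mean. The ITGB4 and LAMB3 groups are well apart, the LAMA5, LAMB1, LAMC1 and PLEC groups are apart by less, and the ITGA6, LAMA3 and DST groups overlap, with replicate 1 low for LAMA3 in both groups.

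The groups stood apart for the beta chain of the integrin and overlapped for its alpha chain. ITGB4, the beta chain found in hemidesmosomes (ENSG00000132470, GRCh38 chromosome 17, 75721328 to 75757818, plus strand), measured 19.0, 21.3 and 18.6 FPKM in CD20-negative replicates 1 to 3. In CD20-positive replicates 1 to 3 it measured 40.8, 37.4 and 50.2 FPKM. Every CD20-positive library lay above every CD20-negative one, with means of 42.8 ± 6.61 and 19.6 ± 1.44 FPKM (SD, n = 3), a ratio of 2.18. Within replicate numbers the ratio was 2.15, 1.76 and 2.70, so replicate 2 alone lay under the 2-fold used to pick the gene. The 3' end of ITGB4 overlaps GALK1, a galactose kinase gene on the opposite strand (75751594 to 75765711). GALK1 measured 22.95 and 21.76 FPKM in the negative and positive means, and whether strand was used in the authors' counting is not given in the sources used here.

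ITGA6, the alpha chain that joins beta4 (ENSG00000091409, chromosome 2, 172427354 to 172506282, plus strand), measured 15.96, 9.54 and 10.6 FPKM in the CD20-negative libraries. It measured 13.8, 14.4 and 14.3 FPKM in the CD20-positive libraries. The groups overlapped because CD20-negative replicate 1 was the highest of all 6 libraries. The log2 change of 0.25 ± 0.19 (SE) did not pass in limma (Benjamini-Hochberg adjusted p = 0.728, and 0.411 when the replicate number was fitted as a block, below called the replicate block). The ratio of ITGB4 to ITGA6 was 1.19, 2.23 and 1.76 in the CD20-negative and 2.96, 2.60 and 3.52 in CD20-positive libraries. The beta4 transcript thus exceeded its alpha partner per length in every library. It did so by more in each CD20-positive one, which the choice of ITGB4 favours. ITGB1, the other partner of alpha6, was 3.14 to 4.04 times ITGA6 over the 6 libraries, with no separation of the groups.

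Of the laminin-332 chains in the set, LAMB3 was well expressed and LAMA3 was low. LAMB3, the beta3 chain (ENSG00000196878, chromosome 1, 209614870 to 209652466, minus strand), measured 14.5, 14.7 and 13.7 FPKM in CD20-negative replicates 1 to 3. In CD20-positive replicates 1 to 3 it measured 34.3, 24.4 and 30.95 FPKM. The groups did not overlap, with means of 29.9 ± 5.01 and 14.3 ± 0.514 FPKM (SD, n = 3) and a ratio of 2.09. Within replicate numbers the ratio was 2.36, 1.66 and 2.26, lowest in replicate 2 as for ITGB4. The next highest ratios among the listed genes lay well below the 2-fold limit. They were 1.57 for LAMA3, whose groups overlapped, and 1.49 for LAMA5. Over all genes tested, a ratio of 2 or more was seen in 1.74%, which is read here only as the background of the choice.

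LAMA3, the alpha3 chain that binds the integrin (ENSG00000053747, chromosome 18, 23689443 to 23956222, plus strand), measured 0.386, 1.16 and 1.07 FPKM in CD20-negative libraries. It measured 0.352, 1.74 and 2.02 FPKM in CD20-positive libraries. Replicate 1 was the lowest in both groups, and the groups overlapped. The log2 change of 0.29 ± 0.35 (SE) did not pass in limma (adjusted p = 0.833, and 0.38 with the replicate block). LAMB3 was 12.6 to 37.7 times LAMA3 in the CD20-negative and 14.04 to 97.2 times LAMA3 in CD20-positive libraries, the highest ratio of each group being in replicate 1. LAMA3 was thus low beside LAMB3 in both groups, so the alpha and beta chain transcripts of laminin-332 were not present at like levels per length.

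The other parts of a classical hemidesmosome were also low. COL17A1, the transmembrane collagen of the junction, stayed between 0.0698 and 0.335 FPKM, and its CD20-positive values (0.299, 0.311 and 0.335 FPKM) lay above its CD20-negative ones (0.232, 0.0698 and 0.189 FPKM). These values rest on only 32, 35 and 37 fragments in CD20-positive and 31, 9 and 26 in CD20-negative replicates 1 to 3. KRT5, a keratin of basal epithelium, reached at most 0.118 FPKM, and its partner KRT14 was listed at 0 in 5 libraries and at 0.0273 FPKM in the other. CD151, a tetraspanin that associates with laminin-binding integrins, was the exception at 24.3 ± 5.13 FPKM in the CD20-negative and 28.1 ± 10.2 FPKM in CD20-positive libraries (SD, n = 3). The log2 change, 0.17 ± 0.27 (SE), was not called by limma (adjusted p = 0.888).

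Because LAMB3 was the laminin gene with the largest ratio, the sequence before its annotated starts is shown, taken from RefSeq (GRCh38.p14), minus strand, written 5′ to 3′ and ended before the first base of a GENCODE release 29 exon. The capitals mark a match to the AP-1 motif TGANTCA, which reads alike on both strands. The inner start, chr1:209651395-209651624, holds it, beginning 67 bases before the RefSeq start, and the printed stretch stops 20 bases before that start. The outer start, chr1:209652467-209652675, has no match.
LAMB3 inner start: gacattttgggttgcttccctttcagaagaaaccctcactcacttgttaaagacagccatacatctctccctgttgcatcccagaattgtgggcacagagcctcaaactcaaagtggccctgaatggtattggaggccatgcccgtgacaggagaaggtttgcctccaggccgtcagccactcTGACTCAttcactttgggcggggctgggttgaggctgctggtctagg
LAMB3 outer start: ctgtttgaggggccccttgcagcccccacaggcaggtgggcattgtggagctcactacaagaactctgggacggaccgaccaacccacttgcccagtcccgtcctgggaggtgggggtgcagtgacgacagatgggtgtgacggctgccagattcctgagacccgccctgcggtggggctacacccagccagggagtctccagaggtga
Windows of 250 bases before the start were matched for 7 of the 9 genes, not for ITGB4 and PLEC. The AP-1 motif was found in 6.57% of all 35116 such windows. The only LAMA3 window, chr18:23872770-23873019, lies before an inner start, and none was matched at the gene's outer end, 23689443. It holds 2 matches, beginning 125 and 69 bases before that inner RefSeq start. Both lie within the 180 bases of the window in or after the first base of a GENCODE release 29 exon. The windows of ITGA6, LAMA5, LAMB1, LAMC1 and DST hold none. A match describes letters, and no binding was measured here.

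For each chain of laminin-511 every CD20-positive library lay above all 3 CD20-negative ones in FPKM, though not as a share of recovered fragments. LAMA5, the alpha5 chain (ENSG00000130702, chromosome 20, 62307955 to 62367312, minus strand), measured 65.9, 97.3 and 89.9 FPKM in CD20-negative libraries. It measured 99.8, 117.6 and 159.8 FPKM in CD20-positive libraries. The gap between the groups was narrow, 97.3 against 99.8 FPKM, and the ratio within replicate numbers was 1.515, 1.21 and 1.78. The log2 change of 0.56 ± 0.24 (SE) did not pass in limma (adjusted p = 0.549, and 0.0908 with the replicate block). Genes on the opposite strand overlap both LAMA5 (ADRM1 at a mean of 51.2 FPKM and LAMA5-AS1 at 8.44 FPKM) and LAMB1 (DLD at 13.6 FPKM), with the same limit on strand as for ITGB4.

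LAMB1, the beta1 chain (ENSG00000091136, chromosome 7, 107923799 to 108003255, minus strand), measured 31.0, 32.8 and 34.8 FPKM in CD20-negative libraries. It measured 42.2, 45.8 and 54.6 FPKM in CD20-positive libraries. The spread within the CD20-negative group was small (32.9 ± 1.88 FPKM, SD, n = 3) and the ratio was close in the 3 replicate numbers, 1.36, 1.395 and 1.57. The log2 change of 0.51 ± 0.15 (SE) did not pass in limma (adjusted p = 0.389, and 0.0607 with the replicate block). LAMC1, the gamma1 chain (ENSG00000135862, chromosome 1, 183023460 to 183145592, plus strand), measured 22.3, 20.3 and 21.5 FPKM in CD20-negative libraries. It measured 25.1, 28.2 and 27.9 FPKM in CD20-positive libraries, the smallest difference of the 3 chains. With a log2 change of 0.33 ± 0.13 (SE) it was not called by limma (adjusted p = 0.518, and 0.204 with the replicate block).

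Within 250 bases before the start, the GC box GGGCGG, read on both strands, was found 5 times for LAMA5, 4 times for LAMB1 and 3 times for LAMC1. It was found 1 time at the inner LAMA3 start and at each LAMB3 start. Of the 4 for LAMB1, 2 lay in the stretch before the first exon base. DST had 4 at 1 start and 0 at the others, and ITGA6 had 3 at 1 start and 0 at the other. At least 1 was found in 42.6% of all windows. The stretches before the first GENCODE release 29 exon base are shown for LAMA5, chr20:62367313-62367562, and LAMB1, chr7:108003256-108003411, both from RefSeq (GRCh38.p14), minus strand, written 5′ to 3′, with no AP-1 match and so no capitals.
LAMA5: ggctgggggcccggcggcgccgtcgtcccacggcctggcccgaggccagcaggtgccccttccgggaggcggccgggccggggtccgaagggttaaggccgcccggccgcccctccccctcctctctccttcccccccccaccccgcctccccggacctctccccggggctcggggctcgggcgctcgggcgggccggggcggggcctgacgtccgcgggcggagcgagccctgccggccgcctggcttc
LAMB1: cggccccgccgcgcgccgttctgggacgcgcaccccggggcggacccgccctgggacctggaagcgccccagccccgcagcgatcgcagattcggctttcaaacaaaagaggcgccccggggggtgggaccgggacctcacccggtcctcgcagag

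The plakin genes of the set lay far apart in level. PLEC, which encodes plectin (ENSG00000178209, chromosome 8, 143915147 to 143976734, minus strand), measured 53.1, 54.7 and 50.1 FPKM in CD20-negative libraries. It measured 63.2, 69.8 and 79.1 FPKM in CD20-positive libraries. The groups did not overlap, and the ratio within replicate numbers was 1.19, 1.275 and 1.58. The log2 change of 0.41 ± 0.15 (SE) did not pass in limma (adjusted p = 0.5, and 0.156 with the replicate block). The ratio of PLEC to ITGB4 was lower in each CD20-positive library (1.55 to 1.86) than in all CD20-negative ones (2.575 to 2.802), which the choice of ITGB4 favours.

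DST (ENSG00000151914, chromosome 6, 56457987 to 56954628, minus strand) has neuronal, muscle and epithelial products, and the gene-level value does not tell them apart. It measured 1.40, 1.27 and 1.74 FPKM in CD20-negative libraries. It measured 0.814, 1.93 and 1.93 FPKM in CD20-positive libraries. CD20-positive replicate 1 was the lowest of all and the other CD20-positive libraries were the highest, so the groups overlapped. The log2 change of 0.02 ± 0.23 (SE) did not pass in limma (adjusted p = 0.985, and 0.961 with the replicate block).

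**Figure D2:**
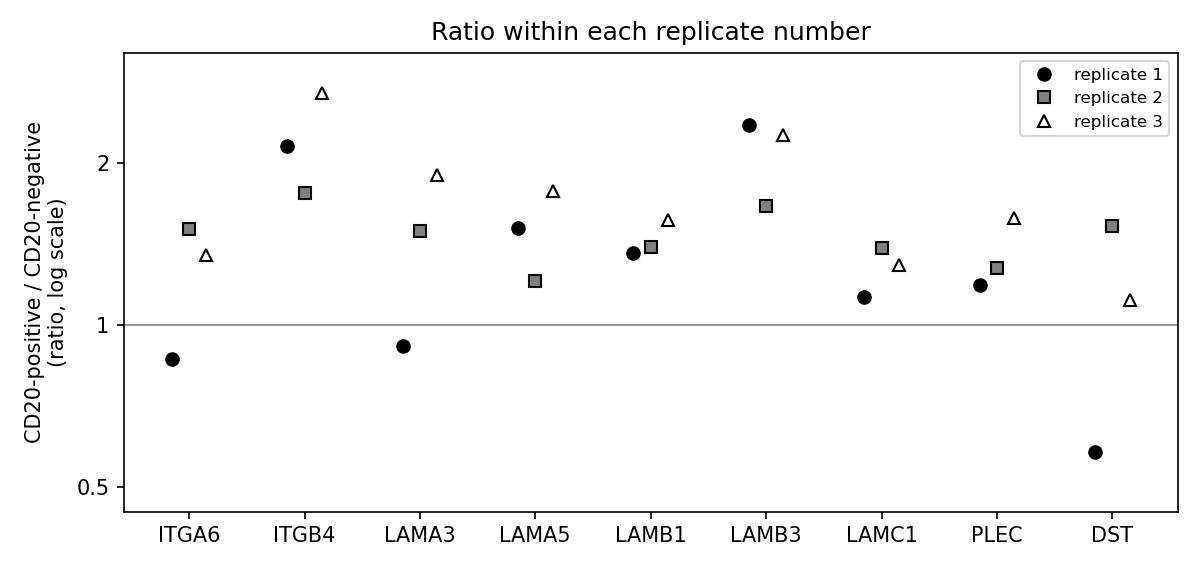
Ratio of CD20-positive to CD20-negative FPKM within each replicate number for the 9 genes, on a log scale with a line at 1. ITGB4, LAMB3, LAMA5, LAMB1, LAMC1 and PLEC are above 1 in all 3 replicate numbers, while ITGA6, LAMA3 and DST are below 1 in replicate 1 (0.863, 0.914 and 0.581) and above it in the others.

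Of the 7 genes that were not picked for their difference, 4 (LAMA5, LAMB1, LAMC1 and PLEC) had every CD20-positive library above every CD20-negative one in FPKM, where 8.87% of all tested genes were. The same 4 were therefore also higher in FPKM in all 3 replicate pairs, and no other of the 7 was, where 21.8% of all tested genes were. As a share of recovered fragments, each of the 4 was lower in CD20-positive replicate 1 than in some CD20-negative library. Of 17479739 fragments, that replicate had 21544 for LAMA5, 5185 for LAMB1, 3193 for LAMC1 and 16212 for PLEC. CD20-negative replicate 2 had 24786 for LAMA5 and 16578 for PLEC of 16666532. Replicate 1 had 3520 for LAMC1 of 17564547, and replicate 3 had 5602 for LAMB1 of 17915933. The median log2 change of the 7 was 0.33, beside 0.0003 over all genes tested. Of the 7, 0 passed in limma without the block (Benjamini-Hochberg adjusted p from 0.389 to 0.985), where 0.0076% of genes, a single gene, were called higher. An unadjusted p under 0.05 was seen for 3 of the 7 and for 9.2% of all tested genes. With the replicate block 0 of the 7 passed in limma (adjusted p from 0.0607 to 0.961), where 3.19% of genes were called higher. An unadjusted p under 0.05 was then seen for 4 of the 7 and for 21.3% of all tested genes. With the block in limma-voom on the recovered fragments, LAMA3, LAMA5 and LAMB1 rose, where 6.9% were called higher. The median prior degrees of freedom were 235020 there, against 10.24 in the limma fit with the block. At that median a gene's variance comes almost wholly from the prior over genes.

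Call counts for these genes depended on the filter and on replicate 1. When the mean had to reach 10 FPKM and the block was kept, 5 of the 7 were tested and LAMA5 (adjusted p = 0.0217 in limma) and LAMB1 (adjusted p = 0.015 in limma) rose, where 9.93% of genes were called higher. In that fit limma's prior had infinite degrees of freedom for 93.4% of genes, so their variance came from the prior alone. The log2 changes stayed at 0.56 and 0.51. The SE went from 0.1802 to 0.1922 for LAMA5 and from 0.1458 to 0.1665 for LAMB1, so these calls came without a smaller SE. The same limit applies to every call below made with the block at a mean of 10 FPKM. Without both libraries of replicate 1 and without the block, ITGA6, LAMA5, LAMB1 and PLEC rose among the 7 (limma, adjusted p from 0.0197 to 0.0398), where 6.33% of genes were called higher. In that comparison of 2 against 2 libraries the ITGA6 log2 change was 0.47 ± 0.13 (SE), and LAMC1, LAMA3 and DST did not pass.

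Scaling each library to the same FPKM total moved the median change of all genes to -0.41. On that scale ITGA6, LAMC1, PLEC and DST had negative log2 changes and the other 5 genes positive ones. Relative to that median all 9 changes were positive, from 0.15 for DST to 0.99 for ITGB4. That total includes the mitochondrial genes. With totals of the other genes equalised instead, the median change of all genes was 0.087. All 9 changes were then positive without the block, as were those of 63.9% of all tested genes. A correction for exon length and GC content, added after the data were seen, lowered the log2 change of PLEC from 0.41 to 0.15, of LAMA5 from 0.56 to 0.30 and of ITGB4 from 1.08 to 0.85. The median change of the 7 genes was 0.28 after it.

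The laminin chains were also compared as shares of their sums. The FPKM of the alpha, beta and gamma chain genes shown in the plot of stacked chains summed to 215.3, 265.4 and 246.9 in the CD20-negative and 336.1, 343.7 and 440.3 in CD20-positive libraries. LAMA5 made up 89.8% ± 2.09 of the alpha chain sum in the CD20-negative and 91.6% ± 1.51 in CD20-positive libraries (SD, n = 3; two-sided exact permutation test, p = 0.6, adjusted over 4 such values 0.6). LAMA3 made up 0.892% and 0.947% of it. Among the beta chains LAMB3 made up 16.8, 15.9 and 15.8% in the CD20-negative and 23.2, 18.8 and 19.2% in CD20-positive libraries, which is not tested because LAMB3 was picked. LAMB1 took 37.1% and 32.5% in the 2 group means, and LAMB2 46.7% and 47.1%. Both are shares of a sum that holds LAMB3, whose choice favours lower shares for them in CD20-positive libraries.

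Of the sum of LAMC1 and LAMC3, LAMC1 took 35.8% ± 5.46 in the CD20-negative and 30.5% ± 4.03 in CD20-positive libraries (SD, n = 3). The LAMC3 share went from 64.2% ± 5.46 to 69.5% ± 4.03, with overlap (two-sided exact permutation test, p = 0.3, adjusted 0.4). The share of LAMB2 in the sum of LAMB1 and LAMB2 was 55.7% ± 2.92 and 59.2% ± 3.27 (SD, n = 3; exact permutation test, p = 0.3, adjusted 0.4). With 3 against 3 libraries none of these 4 tests can give a p under 0.1.

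**Figure D3:**
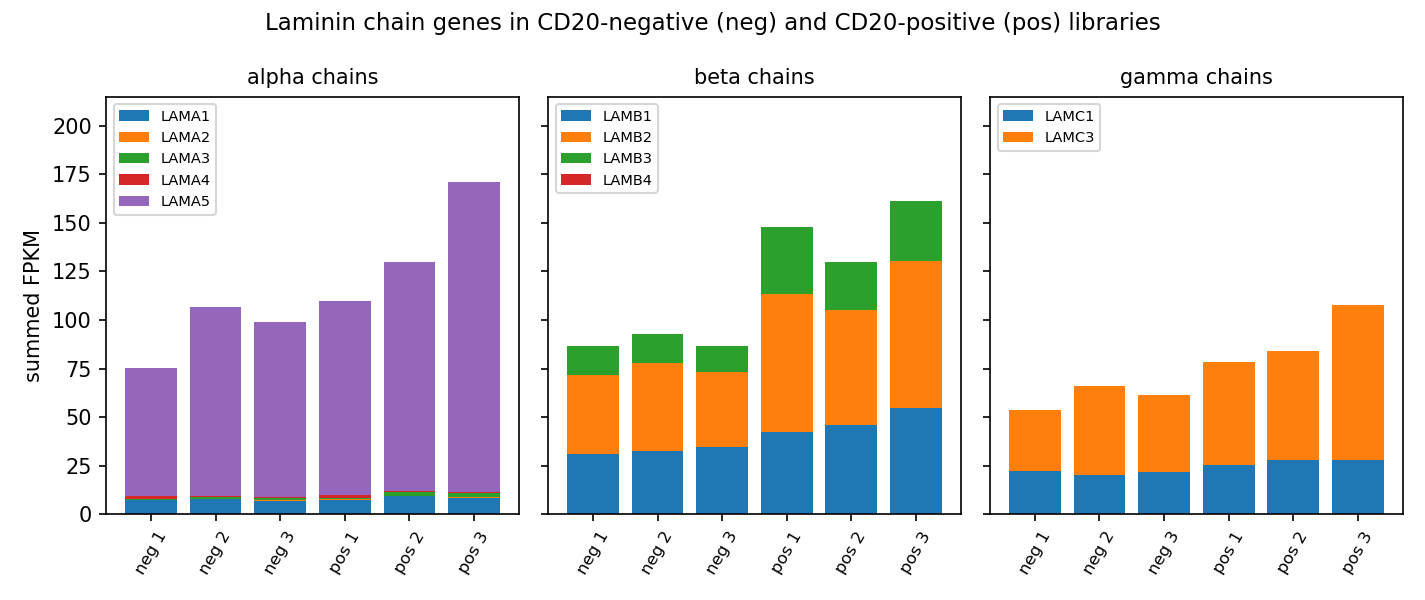
Summed FPKM of the laminin alpha, beta and gamma chain genes named in the legends in each CD20-negative (neg) and CD20-positive (pos) library, stacked by gene from 0. LAMA5 fills nearly all of the alpha bars, LAMB1, LAMB2 and LAMB3 share the beta bars, LAMC1 and LAMC3 share the gamma bars, and LAMA3 is barely visible.

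The partner lists below held 28 tested genes, and 11 of them rose in limma with the replicate block, where 3.19% of all tested genes were called higher. Without the block 0 of the 28 passed in limma, and 10 had an unadjusted p under 0.05, as did 9.2% of all tested genes. With the block and the length and GC correction 0 of the 28 passed (limma, lowest adjusted p = 0.0537), where 0.502% of genes were called higher. An unadjusted p under 0.05 was then seen for 14 of the 28 and for 3216 of 13135 genes. With the block and FPKM totals equalised 0 of the 28 passed (limma, lowest adjusted p = 0.0864), where 0.646% were called higher. There 1 of the 28 and 6210 of 13303 genes had an unadjusted p under 0.05. Without both libraries of replicate 1, and without the block, 16 of the 28 rose in limma, where 6.33% were called higher.

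Of the other laminin chain genes analysed, 3 reached a mean of 1 FPKM and 2 rose with the replicate block. LAMB2, the beta2 chain, measured 41.4 ± 3.44 FPKM in the CD20-negative and 69.0 ± 8.40 FPKM in CD20-positive libraries (SD, n = 3), a log2 change of 0.72 ± 0.16 (SE; limma with the block, adjusted p = 0.0272). LAMC3, the gamma3 chain, measured 38.9 ± 7.25 and 63.0 ± 14.6 FPKM, a log2 change of 0.68 (limma with the block, adjusted p = 0.0387). Neither passed without the block (limma, adjusted p = 0.278 and 0.451), or with the block and the length and GC correction (0.0672 and 0.0872). LAMA1 measured 7.34 and 8.39 FPKM with overlap, and LAMA4 lay between 0.494 and 1.82 FPKM.

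The 5 other laminin receptor genes were all expressed, and 2 rose with the block, both alpha chains that pair with integrin beta1. ITGA3, whose product binds laminin-332 and laminin-511, measured 20.8 ± 4.02 FPKM in the CD20-negative and 33.2 ± 5.67 FPKM in CD20-positive libraries (SD, n = 3; limma with the block, adjusted p = 0.0239, and 0.378 without it). ITGA7, named after its values were seen, measured 8.53 ± 1.20 and 16.2 ± 3.57 FPKM (limma with the block, adjusted p = 0.00963, and 0.277 without it). ITGB1 (44.95 and 51.3 FPKM), dystroglycan DAG1 (55.8 and 67.9 FPKM) and BCAM (36.4 and 48.5 FPKM), a receptor for laminin alpha5, did not pass. With the length and GC correction beside the block neither ITGA3 nor ITGA7 passed in limma (adjusted p = 0.0677 and 0.0537). BCAM rose when the block was kept and the mean had to reach 10 FPKM (limma, adjusted p = 0.0448), where 9.93% of genes were called higher. ITGB1 rose without replicate 1 and without the block (limma, adjusted p = 0.0313). The ratio of ITGA3 to ITGB1 was 0.467 ± 0.0591 and 0.669 ± 0.219 (SD, n = 3; exact permutation test, p = 0.2, adjusted 0.4).

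Among 5 other plakins 0 passed in limma with the block and 0 without it. An unadjusted p under 0.05 was seen for 2 with the block and 0 without it, beside 21.3% and 9.2% of all tested genes. EVPL rose with the block among genes whose mean reached 10 FPKM (limma, adjusted p = 0.0203), and DSP and PPL rose without replicate 1 and without the block (limma, adjusted p = 0.0354 and 0.0223). Desmoplakin DSP, the desmosome linker, measured 20.6, 37.1 and 42.0 FPKM in the CD20-negative and 13.7, 57.8 and 52.6 FPKM in CD20-positive libraries, lowest in replicate 1 of each group. Periplakin PPL measured 6.71 and 9.75 FPKM, envoplakin EVPL 14.4 and 20.3 FPKM, and MACF1, the closest relative of DST, 2.59 and 2.52 FPKM in the group means. Like DST, MACF1 was lowest in CD20-positive replicate 1, at 1.34 FPKM. The median log2 change of the plakin list was 0.13.

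Partners of laminin in the basement membrane had a median log2 change of 0.66, and 4 of 6 tested genes rose with the block. AGRN, a heparan sulfate proteoglycan that binds laminins, measured 40.8 ± 4.46 and 75.1 ± 12.1 FPKM (SD, n = 3; limma with the block, adjusted p = 0.0155, and 0.248 without it). COL7A1, the anchoring fibril collagen that holds laminin-332 in skin, measured 62.95 ± 11.9 and 111.9 ± 11.98 FPKM (limma with the block, adjusted p = 0.02, and 0.286 without it). COL4A2, a basement membrane collagen, measured 42.2 ± 7.14 and 72.2 ± 15.9 FPKM (limma with the block, adjusted p = 0.0186, and 0.362 without it). The fourth was the perlecan gene HSPG2, named after its values were seen (9.67 and 14.8 FPKM). Nidogen NID2 (28.3 and 41.6 FPKM) did not pass with the block over all tested genes (limma, adjusted p = 0.0944). When the mean had to reach 10 FPKM, all 6 rose with the block, where 9.93% of genes were called higher. There NID2 had an adjusted p of 0.02 in limma. Its log2 change stayed at 0.48 and its SE went from 0.1565 to 0.1628, so the limit of the infinite prior given above applies. All 6 also rose without replicate 1 and without the block (limma, adjusted p from 0.00121 to 0.0265), where 6.33% of genes were called higher. With the block and the length and GC correction none of the 6 passed, AGRN having an adjusted p of 0.0638, COL7A1 0.0822, COL4A2 0.0637 and HSPG2 0.103 in limma.

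Among 5 genes for proteases that cut laminin-332 or collagen XVII, 2 were tested and both rose with the block, and neither passed without it. BMP1, which trims laminin chains, measured 21.2 ± 2.47 and 32.9 ± 3.69 FPKM (SD, n = 3; limma with the block, adjusted p = 0.0384). MMP2 measured 84.0, 31.3 and 27.8 FPKM in the CD20-negative and 149.9, 44.6 and 51.3 FPKM in CD20-positive libraries, highest in replicate 1 of each group (limma with the block, adjusted p = 0.0213). With the length and GC correction beside the block, BMP1 and MMP2 did not pass in limma (adjusted p = 0.0775 and 0.0537). MMP14 stayed at or below 0.170 FPKM and MMP9 at or below 0.214 FPKM. Of 6 intermediate filament genes, to which plakins bind, 1 rose with the block. It was KRT17, named after its values were seen, at 25.5 ± 12.8 and 42.6 ± 22.7 FPKM (limma with the block, adjusted p = 0.0184, and 0.0604 with the length and GC correction beside it). KRT8, KRT18, KRT19 and VIM, the 4 most abundant, did not pass, with KRT8 at 197.6 and 226.5 FPKM and VIM at 45.6 and 54.4 FPKM.

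**Figure D4:**
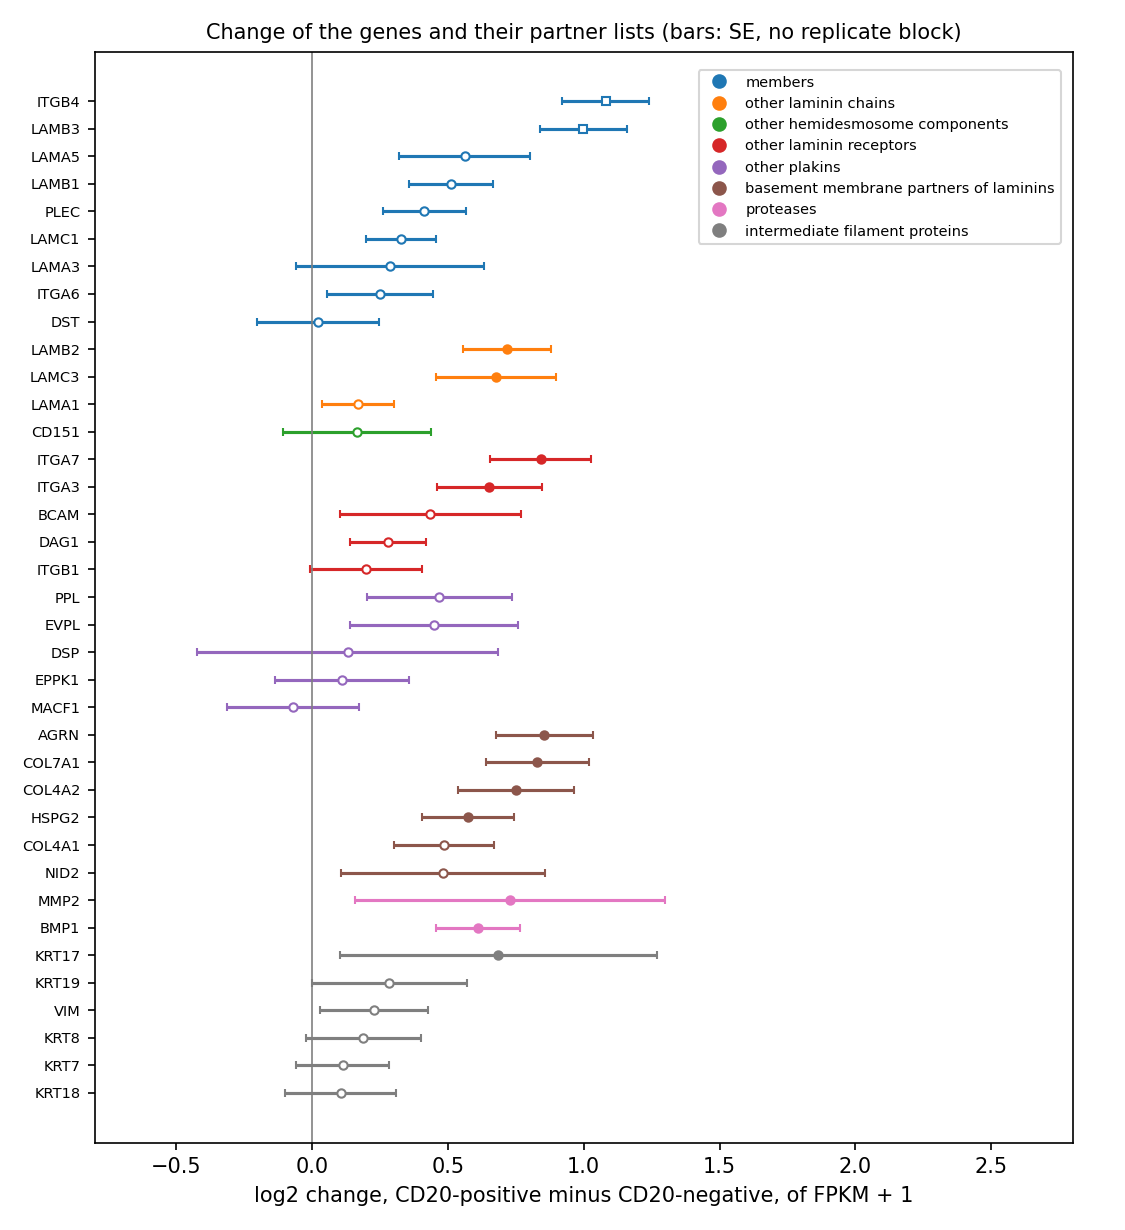
Log2 change of FPKM + 1 (CD20-positive minus CD20-negative) for the 9 genes and the tested genes of the 7 partner lists, with SE bars from the fit without the block; filled points passed an adjusted p of 0.05 in limma with the replicate block, and squares are ITGB4 and LAMB3, which were picked and are not marked for a test. The basement membrane list has a median of 0.66 and the plakin list one of 0.13, and no test compares the lists.

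Markers of other cells were mostly near 0. Of 10 keratinocyte markers only KRT10 reached a mean of 1 FPKM and 4 were at 0 in all libraries, with a summed level of 18.2 to 31.3 FPKM in the CD20-negative and 12.2 to 21.0 FPKM in CD20-positive libraries. Of 8 fibroblast markers COL1A1, COL3A1 and PDGFRB reached that level, with sums of 62.5 to 85.6 and 103.6 to 142.7 FPKM, so their sum moved with the laminin genes. The fibroblast markers COL1A2, DCN, LUM, PDGFRA and THY1 were at or below 0.0421 FPKM in every library. Of 8 melanocytic markers PMEL and MITF reached a mean of 1 FPKM, with sums over the 8 of 11.1 to 21.4 and 17.4 to 35.7 FPKM. PMEL measured 14.96 and 26.05 FPKM in the negative and positive means, and MITF 2.19 and 2.04 FPKM. MLANA, TYR, TYRP1, DCT and S100B were at or below 0.262 FPKM in every library. SOX10, which marks most melanoma lines, was at or below 0.0717 FPKM. The part of these markers in the results was not tested.

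Genes with the most similar profile to the picked pair were found by the root mean square difference of log2(FPKM + 1), centred on each gene's mean, over the 6 libraries and the 4207 protein-coding genes that reached a mean of 10 FPKM. LAMA3 and DST fell short of that mean and were not ranked. For ITGB4 they were the actin-severing protein gelsolin GSN (0.06), the lipoprotein lipase inhibitor ANGPTL4 (0.12), AGRN (0.13), APLP1 (0.14) and LAMB3 (0.15). For LAMB3 they were the collagen V chain COL5A1 (0.11), GSN (0.12), the receptor NOTCH3 (0.12), PNPLA6 (0.12) and LTBP3 (0.13), and ITGB4 came sixth. GSN measured 23.2, 26.0 and 23.6 FPKM in the CD20-negative and 49.2, 44.6 and 55.4 FPKM in CD20-positive libraries, with replicate 2 lowest of the positive libraries as for ITGB4. Of the other listed genes ranked, LAMB1 was nearest to ITGB4, at rank 100, and ITGA6 was farthest, at rank 1067. For LAMB3 the ranks ran from 164 for LAMB1 to 925 for ITGA6. These are descriptions over 6 libraries that share their 2 groups. ITGB4 and LAMB3 were both picked for a 2-fold rise between these groups, which favours their nearness to each other. It also favours the greater distance of the listed genes that were not picked.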

How the data were processed

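Polyadenylated RNA of 6 sorted fractions of M14 spheres was sequenced, 3 in each group. Per the labels' protocols, libraries were made with the Illumina TruSeq RNA kit (v2). The submitters' processing notes name GRCh38, HISAT2, featureCounts 1.5.0 and DESeq2, with settings not given in the sources used here. The deposited values carry no unit in the header and were identified as FPKM computed by the authors, since multiplied by GENCODE release 29 exon lengths they gave whole fragments for 98.1 to 98.6% of values up to 20 fragments (tolerance 0.02). The 9 genes, the gene lists and the tests were chosen with earlier results of these data known. The 13155 genes whose mean reached 1 FPKM were tested on log2(FPKM + 1), which understates the change of low genes. The contrast was CD20-positive minus CD20-negative in limma 3.58.1, with a trended and robust prior and without a block, adjusted by Benjamini-Hochberg and called at 0.05. The script was tested on simulated data. Deviations from the group means correlated between same-numbered libraries at 0.675, 0.238 and 0.509. The numbers were taken as pairs, and a blocked fit on the replicate number was run too. However, negative replicate 2 correlated better with positive replicate 3 (0.426), and negative replicate 3 correlated with positive replicate 2 at 0.396. Replicates 2 and 3 could therefore be crossed, and calls with the block rest on the numbering. Genes named were the 9, MS4A1, the 4 most abundant of each partner list and the 5 nearest profiles of ITGB4 and of LAMB3. Alternatives covered the block, pseudocount, filter, scaling, prior, voom, left-out libraries, and exon length with GC content. Of the table's genes, 58275 matched the annotation and 120 did not. Some genes of the lists are not reported here.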

Additional observations from a re-analysis of the deposited data

How the results depend on the processing

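In limma without the block, 1 gene of 13155 was called and 1210 had an unadjusted p under 0.05. That count was 2 with a pseudocount of 5, 0 with no filter, with voom and with the length and GC correction, 9 with quantile normalisation and 1331 with FPKM totals equalised, and none of the 9 genes was called in these. The counts of the 9 below include ITGB4 and LAMB3, which were picked for their difference, so no test is read from them. With the replicate block 767 genes and 2 of the 9 (this pair) were called. Beside the block, the counts were 954 genes and 4 of the 9 at a mean of 10 FPKM, 3871 and 2 with FPKM totals equalised, 1620 and 5 with voom, 92 and 2 with the length and GC correction, 933 and 4 with nuclear totals, 716 and 2 with a pseudocount of 0.1, and 450 and 2 with no trend or robust prior (the last 4 chosen after seeing the data). LAMA3 was called only with voom and the block. Leaving out libraries gave 0 to 2141 called genes and 0 to 6 of the 9. It gave 322 genes and 2 of the 9 without CD20-positive replicate 1, and, with the block kept, 2141 and 6 without replicate 1, 1 and 0 without replicate 2, and 331 and 2 without replicate 3. With the block kept, the prior had infinite degrees of freedom for 90.3% of genes without replicate 1 and for 89.5% without replicate 3. The cause of the differences between settings was not tested.

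With FPKM totals equalised, the log2 change (without and with the replicate block) was -0.23 for ITGA6, -0.17 for LAMC1, -0.10 for PLEC, -0.26 for DST, -0.29 for LAMA1, -0.016 for NID2, -0.33 for KRT8, -0.41 for KRT18, -0.23 for KRT19, -0.28 for VIM, -0.34 for CD151, -0.23 for DAG1, -0.31 for ITGB1, -0.068 for BCAM, -0.36 for DSP and -0.041 for EVPL. DST was at -0.0054 with voom, and MACF1 at 0.015 with nuclear totals. Over the left-out libraries the log2 change ran from -0.15 to 0.25 for DST, -0.050 to 0.36 for KRT8, -0.10 to 0.29 for KRT18, -0.033 to 0.50 for KRT19, -0.10 to 0.35 for CD151, -0.016 to 0.48 for ITGB1, -0.22 to 0.78 for DSP and -0.21 to 0.20 for MACF1. Of 1130 log2 changes of named genes under an alternative, 60 changed sign. LAMA3 had 78 to 469 fragments per library.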

Other observations

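Adhesion genes that set the replicate 1 libraries apart crossed the sort. In both groups replicate 1 was lower than the other 4 libraries for LAMA3 (0.352 to 0.386 against 1.07 to 2.02 FPKM), DSP (13.7 to 20.6 against 37.1 to 57.8 FPKM) and KRT17 (10.8 to 16.6 against 32.3 to 58.4 FPKM). It was higher for MMP2 (84.0 to 149.9 against 27.8 to 51.3 FPKM), EVPL and CD151. None of ITGA6, ITGB4, LAMB3, LAMA5, LAMB1, LAMC1, PLEC or DST had both replicate 1 libraries on the same side of the other 4. These genes were picked after their values were seen, and 44.3% of all tested genes had both replicate 1 libraries on 1 side.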
